A study of Homo sapiens with 32 samples.

Results

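MeRIP-seq, in which fragmented RNA is immunoprecipitated with an antibody against N6-methyladenosine (m6A) and then sequenced, was compared between the WT parental line of RPTEC and SETD2KO clone 2 of the same line. RPTEC are hTERT-immortalized human renal proximal tubule epithelial cells, and clone 2 is 1 CRISPR/Cas9 clone in which SETD2 was inactivated, so its SETD2 genotype cannot be told apart from anything else that sets this clone apart. Both lines grew in DMEM/F12 with the RPTEC growth supplement and 10% FBS and received no treatment. Each line had 2 immunoprecipitated (IP) libraries, giving 4 of the 16 IP peak lists of the series. Neither the labels nor the lists say whether the 2 libraries of a line came from separate cultures, so p-values measure only the spread between these libraries, which may be technical. Further lists came from SETD2KO clone 1, from clone 1 re-expressing full-length FLAG-SETD2 (SETD2KO-1R) and from the 786-O clear cell renal carcinoma line. They took no part in calling changes between WT and clone 2. They were used to look up the same regions, genes and spans, for the same library measures, and to pick some of the regions named below. Clone 1 was also compared with WT by the same rule.

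Overlapping peaks of the 4 lists were merged into 48637 regions. A region was named gained when both clone 2 libraries and neither WT library called a peak in it, and lost in the reverse case. There were 1525 gained regions, which is 3.14% of all regions, and 2163 lost regions, which is 4.45%. These labels are descriptions set by the calls themselves and carry no test. The lists give peaks and not read counts, so the depth at a region is unknown. A call also depends on how much of the RNA was present, and in bulk libraries fewer cells with a transcript and less of it per cell cannot be told apart.

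m6A is placed on nascent mRNA by a complex built on METTL3 and METTL14, mostly near stop codons and in long internal exons, within short motifs around the letters GGAC. SETD2 trimethylates lysine 36 of histone H3 over the bodies of transcribed genes, and METTL14 can bind that mark. Renal proximal tubule cells reabsorb solutes through apical transporters and are joined by tight and adherens junctions, so genes of these kinds were followed below.

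The start-site windows of RefSeq (GRCh38.p14, 250 bases before to 50 after each annotated start) show where a call reached the beginning of a transcript. The 50 transcribed bases of such windows overlapped 69 gained regions (4.52%), 83 lost regions (3.84%) and 624 of the regions called in all 4 libraries (8.57%). The letters GGAC stood on the transcribed strand in 16 of the 83 windows under gained regions (19.3%), in 15 of the 94 windows under lost regions (16.0%) and in 19.8% of all 22199 windows of protein-coding genes. The reverse complement GTCC stood in 10.8%, 27.7% and 18.8%. The following 30-base stretches are shown because each lies within the 50 first bases of a transcript and inside a gained or lost region, with GGAC in capitals, 5′ to 3′ on the transcribed strand. The first 3 were gained and the others lost.
FERMT2: gcagcgcttcgccagccgaggaaccGGACg
SATB1: gctcccgttccccGGACgcggcggatgagc
LAMA4: gagaaggaagccaGGACagcgcagtcccca
CDKN2B: ggcggggcagtgaGGACtccgcgacgcgtc
GGA3: gtcccaagtaggaGGACattccccaagcag
EMX2: aacacttccatggattgtccttGGACttag

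FERMT2 encodes kindlin-2, an integrin activator, and its stretch lies on the minus strand at chr14:52951001-52951030. SATB1, a chromatin organiser, has its stretch on the minus strand at chr3:18425298-18425327, and the gained region around it was called in both clone 1 libraries and in neither SETD2KO-1R library. The same was true of the region at the start of the laminin chain gene LAMA4, on the minus strand at chr6:112254538-112254567. CDKN2B encodes the cell cycle inhibitor p15, and its stretch on the minus strand at chr9:22009261-22009290 belonged to a region called in both WT, both clone 1 and both SETD2KO-1R libraries but in neither clone 2 library. GGA3, a sorting adaptor of the Golgi, has its stretch on the minus strand at chr17:75262316-75262345, in a lost region that clone 1 did not call either. EMX2, a transcription factor of the developing urogenital tract, has its stretch on the plus strand at chr10:117542766-117542795, in a lost region that both clone 1 libraries and neither SETD2KO-1R library called. These letters are a description of the windows, and not evidence of a methylated base.

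The numbers of peaks did not separate the lines. WT held 27238 and 23126 peaks and clone 2 held 26270 and 19249, a log2 difference of -0.16 (exact permutation test, two-sided, p = 0.667, n = 2 per line). With 2 libraries against 2 the smallest p that this test can give is 0.333, so no library measure could reach statistical significance. Median peak width was 403 and 376 bp in WT and 411 and 381 bp in clone 2, with overlapping groups (p = 0.667, exact permutation test). Peaks lay in 9089 and 8322 protein-coding genes in WT and in 9007 and 7627 in clone 2.

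Where the peaks lay did separate the libraries. In WT 89.2% and 88.7% of peaks were centred in a protein-coding gene, against 85.7% and 84.2% in clone 2, a difference of -3.93 percentage points between 88.9 ± 0.342% and 85.0 ± 1.08% (mean ± SD, n = 2; exact permutation test, p = 0.333, the smallest possible). The share centred in no annotated gene was 4.98% and 5.30% in WT and 7.41% and 8.51% in clone 2, a difference of 2.83 points (exact permutation test, p = 0.333). The groups did not overlap in either measure. In 786-O the differences between clone 2 and WT ran the same way, at -4.54 and 3.22 points. In RPTEC clone 1 the share in no gene was 8.53% and 6.41%, and in SETD2KO-1R of RPTEC it was 5.15% and 5.55%. In 786-O the rescue did not lie at the WT level, with 8.40% and 8.68% in no gene against 6.22% and 6.23% in WT.

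The share outside gene bodies was larger among gained than among lost regions. Of the gained regions 68.8% were centred in a protein-coding gene, 8.92% in a long non-coding RNA (lncRNA) gene only and 20.2% (308 regions) in no gene. Of the lost regions 87.1% were centred in a protein-coding gene, 4.53% in a lncRNA gene and 6.24% (135 regions) in no gene. Among all regions the 3 shares were 85.7%, 5.13% and 7.39%, so it was the gained regions that stood away from the background. The protein-coding genes that held gained regions were also longer, with a median of 99.3 kb against 71.7 kb for lost regions and 56.0 kb for regions called in all 4 libraries. Genes over 200 kb took 27.9% of the gained regions in protein-coding genes, 18.0% of the lost ones and 19.9% of all. No test is given for these shares, because regions of 1 library are not replicates.

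**Figure D1:**
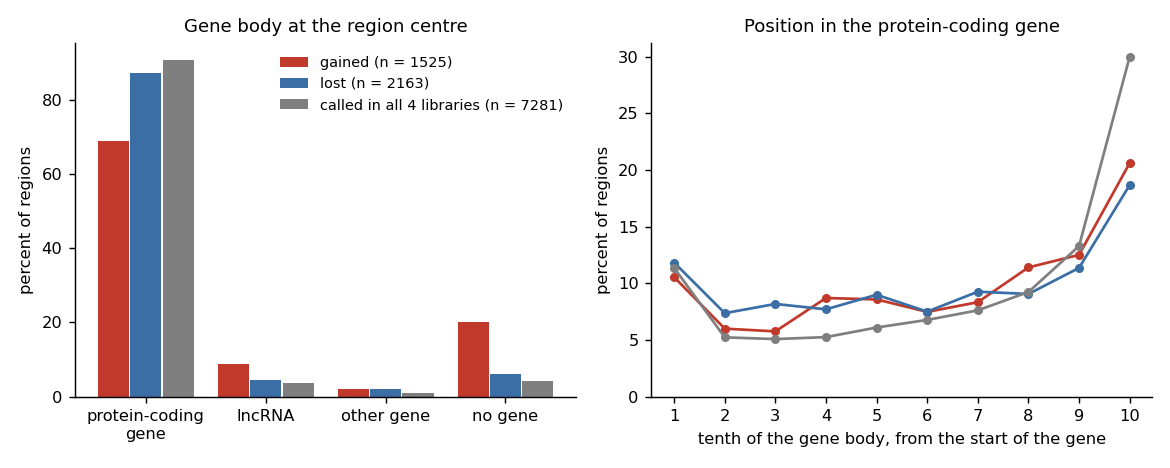
Left, percent of gained, lost and always-called regions by the kind of gene body at the region centre. Right, percent of the regions inside 1 protein-coding gene of known strand in steps of 10% of the gene body, counted from the start of the gene. Of gained regions 20.2% lay in no gene, against 6.24% of lost regions, and the last 10% of the gene body held 20.6% and 18.7% of them, against 29.98% of regions called in all 4 libraries.

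Both sets stood below the regions called in all 4 libraries in score and width, and in their medians slightly above the remaining 37668 regions, which were called in other combinations of libraries. The deposited score has no stated scale, so each peak was ranked within its own list, with 100 for the highest score. The median of the mean rank was 39.6 for gained, 40.8 for lost, 66.1 for regions called in all 4 libraries and 36.01 for the remaining regions. In the upper 10% stood 59 gained (3.87%) and 98 lost regions (4.53%), against 5.91% of the remaining regions. Most of the remaining regions carry the rank of 1 library, which reaches the extremes more easily than a mean of 2. Within single lists the order varied. Median rank was 38.99 for lost and 42.48 for remaining regions in WT replicate 1, and 44.53 and 38.25 in WT replicate 2. For gained and remaining regions it was 39.95 and 41.77 in clone 2 replicate 1, and 41.18 and 38.24 in clone 2 replicate 2. Median region width was 504 bp for gained regions and 449 bp for lost regions. It was 744 bp for regions called in all 4 libraries and 371 bp for the remaining regions, and merging peaks of more lists widens a region. Within single lists, taking the widest peak per region, the median was 366 bp for lost and 361 bp for remaining regions in WT replicate 1. In WT replicate 2 it was 351 and 340 bp. For gained and remaining regions it was 407 and 370 bp in clone 2 replicate 1, and 378 and 347 bp in clone 2 replicate 2. Regions wider than 1000 bp made up 7.08% of the gained, 2.77% of the lost, 28.8% of the always-called and 2.16% of the remaining regions. Along the gene, 20.6% of gained, 18.7% of lost and 29.98% of always-called regions, and 15.1% of the remaining ones, lay in the last 10% of the gene body, which holds the stop codon of most mRNAs, while the first 10% held 10.6%, 11.8%, 11.4% and 13.4%.

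Most regions that differed between libraries were called in 1 library alone. The 4 libraries shared 7281 regions, whereas 7238 regions were called in clone 2 replicate 1 only, 4383 in clone 2 replicate 2 only, 7081 in WT replicate 1 only and 5995 in WT replicate 2 only. The overlap of covered bases, as a Jaccard index, was 0.338 between the WT libraries and 0.285 between the clone 2 libraries. It was 0.376 between WT replicate 1 and clone 2 replicate 1 and 0.296 between WT replicate 2 and clone 2 replicate 2. The pairs of unequal replicate number from WT and clone 2 lay at 0.293 and 0.277. Each clone 2 library thus overlapped most with the WT library of the same replicate number, and the lists did not group by line. Just outside the rule stood 11621 regions called in 1 clone 2 and no WT library, with a median rank of 31.4, and 2103 called in both clone 2 and 1 WT library, with a median rank of 47.2. For lost regions the corresponding neighbours numbered 13076, with a median rank of 29.7, and 4012, with a median rank of 53.02.

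The chromosomes differed in how many of their regions changed, and chromosome X stood out for gains. On X 82 of 1480 regions were gained (5.54%) and 29 were lost (1.96%). Over all regions losses outnumbered gains, but with equal numbers of peaks per library the counts were 1368 gained and 1458 lost. Leaving out 1 library asks for only 1 call of its line, so the share of gains among changed regions then shifts by construction. That share was 54.4% or 72.1% without 1 or the other clone 2 library, and 26.5% or 19.3% without 1 or the other WT library. Chromosome 4 also had more gains than losses, with 98 gained (5.22%) and 64 lost (3.41%) of 1878 regions. Chromosome 19 had the opposite balance, with 63 gained (2.02%) and 195 lost (6.26%) of 3115 regions. The highest lost share among the autosomes was that of chromosome 21, at 6.74%. These chromosomes were picked after their counts were seen, so no test is given.

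**Figure D2:**
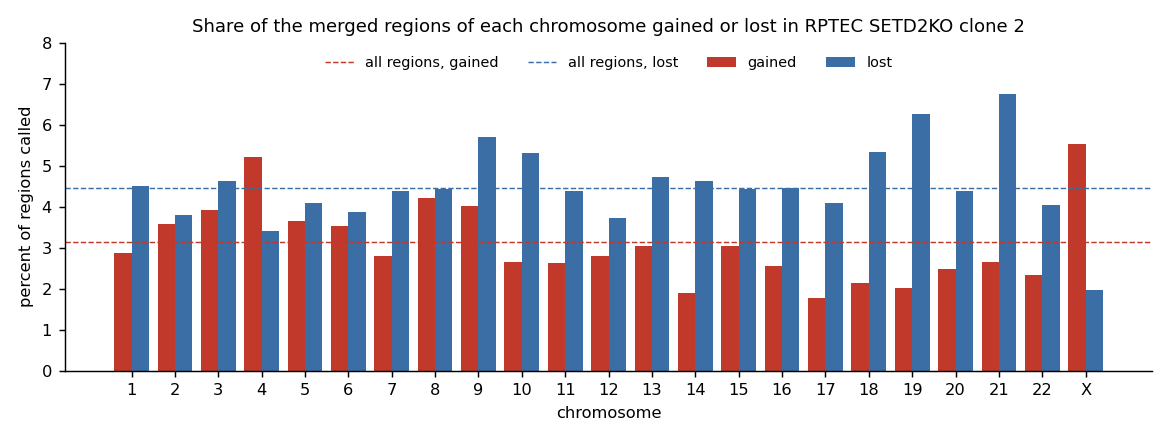
Percent of the merged regions of each autosome and chromosome X that were gained (red) or lost (blue) in clone 2, with dashed lines at the shares over all regions (3.14% and 4.45%). Chromosomes X and 4 had more gained than lost regions, at 5.54% against 1.96% and 5.22% against 3.41%.

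The share of all peaks on chromosome X, which rests on the same WT and clone 2 peaks and so restates that balance for these 4 libraries, was 2.63% and 2.36% in WT and 3.56% and 3.78% in clone 2. Clone 1 lay at 4.17% and 3.81% and SETD2KO-1R at 2.41% and 2.43%, so all 4 RPTEC libraries without SETD2 were above all 4 with it. In 786-O the range was 2.82% to 2.83% in WT, 2.98% to 3.23% over the 4 knockout libraries and 2.81% to 2.97% in SETD2KO-1R. The gained regions of X lay in 51 protein-coding genes, with 24 regions in none. MXRA5, a matrix remodelling protein, had 0 and 0 peaks in WT, 3 and 2 in clone 2, 1 and 2 in clone 1, and 0 and 0 in SETD2KO-1R. COL4A5, a basement membrane collagen chain, had 0 and 0 peaks in WT and 5 and 2 in clone 2, with 2 and 1 in clone 1 and 2 and 1 in SETD2KO-1R.

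At the level of whole genes, 926 of the 11022 protein-coding genes with a region held at least 1 gained region (8.4%), 1608 held at least 1 lost region (14.6%) and 126 held both (1.14%). Most changed regions lay in genes that the other line also marked elsewhere. Of the 1049 gained regions in protein-coding genes, 63.5% lay in a gene with a peak in both WT libraries and 25.6% (269 regions) in a gene with none. Of the 1885 lost regions in protein-coding genes, 69.7% lay in a gene with a peak in both clone 2 libraries and 16.4% (310 regions) in a gene with none.

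In 316 of 11048 protein-coding genes (2.86%) every peak was on the clone 2 side, with a peak in both clone 2 libraries and none in either WT library, and in 414 genes (3.75%) it was the reverse. With equal numbers of peaks per library the order turned, with 377 genes gained and 354 lost. Leaving out 1 library asks for peaks in only 1 library of its line, so both counts then shift by construction. Gained and lost genes numbered 575 and 1338 without clone 2 replicate 1 and 893 and 714 without clone 2 replicate 2. Without WT replicate 1 they numbered 753 and 756, and without WT replicate 2 they numbered 509 and 895. Most of these genes had few peaks. The gained genes had a median of 1.5 peaks per library and 30 of them had 3 or more, while the lost genes had a median of 1 and 17 of them had 3 or more. The genes with most peaks are described next, each with 0 in both libraries of the other line.

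ITGA11, the integrin chain that binds fibrillar collagen, had the most peaks among the gained genes, at 17 and 6 in the clone 2 libraries. Clone 1 called none in it and SETD2KO-1R called 2 and 2. SORCS2, a sorting receptor of the VPS10 family, had 14 and 5 peaks in clone 2, 13 and 10 in clone 1 and 0 and 0 in SETD2KO-1R. GNG4, a G protein gamma subunit, followed the same order with 6 and 11, 1 and 5, and 0 and 0. ZNF469, a large zinc finger protein mutated in brittle cornea syndrome, had 8 and 9 peaks in clone 2, 7 and 10 in clone 1, and 0 and 1 in SETD2KO-1R. All 8 regions of ZNF469 were gained, between chr16:88427370 and 88439534. NEK10, a kinase of the NIMA family, had 8 and 4, 8 and 9, and 1 and 0. In these 4 genes the knockout clones were above both the WT and the SETD2KO-1R libraries.

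Other gained genes did not have this order of calls. SYT1, a calcium sensor of vesicle release, had 9 and 9 peaks in clone 2 but 2 and 1 in clone 1 and 3 and 2 in SETD2KO-1R. DGKI, a diacylglycerol kinase, had 11 and 7, with 4 and 5 in clone 1 and 3 and 5 in SETD2KO-1R. TENM3, a teneurin adhesion molecule, had 10 and 7 peaks in clone 2, 16 and 12 in clone 1, and 20 and 22 in SETD2KO-1R, so it was marked in every derived line and not in WT. Over all 316 gained genes, 169 (53.5%) had peaks in both clone 1 libraries, 135 (42.7%) in neither SETD2KO-1R library, and 63 (19.9%) met both conditions. Among the 928 protein-coding genes with peaks in 1 WT and 1 clone 2 library these shares were 38.7%, 16.7% and 2.16%.

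**Figure D3:**
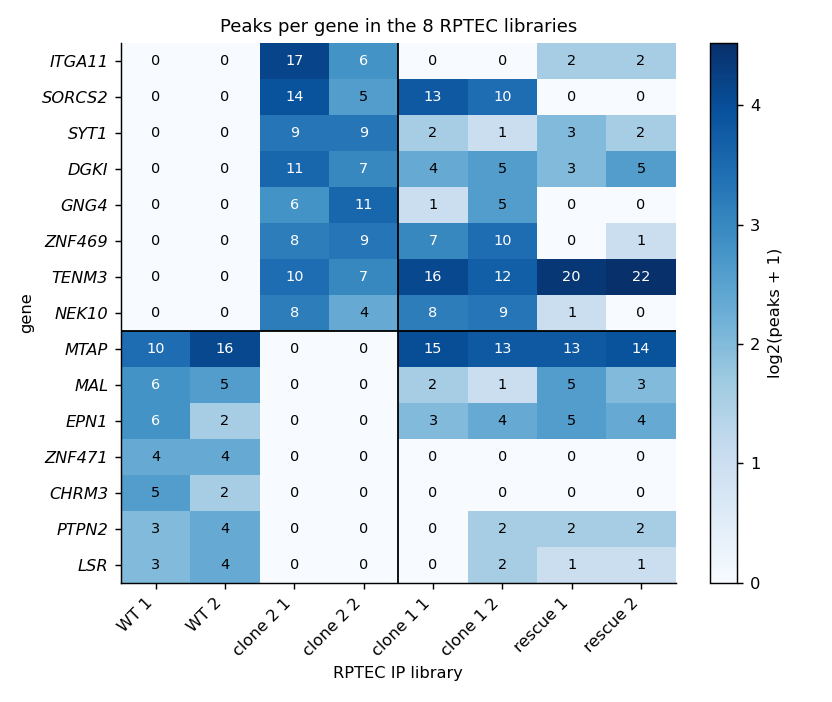
Peaks per gene in the 8 RPTEC libraries for the protein-coding genes with most peaks among those called only on the clone 2 side (8 upper rows) and only on the WT side (7 lower rows). Numbers are peaks and the colour is log2(peaks + 1), and rescue stands for SETD2KO-1R. SORCS2, GNG4, ZNF469 and NEK10 had more peaks in every library of both clones than in WT or SETD2KO-1R, whereas MTAP was at 0 in clone 2 only.

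Among the lost genes MTAP, which salvages methylthioadenosine, had 10 and 16 peaks in WT, 0 and 0 in clone 2, 15 and 13 in clone 1 and 13 and 14 in SETD2KO-1R. MAL, a proteolipid of apical membrane traffic in renal epithelium, had 6 and 5 peaks in WT and none in clone 2, with 2 and 1 in clone 1 and 5 and 3 in SETD2KO-1R. EPN1, an endocytic adaptor, had 6 and 2 peaks in WT, 0 and 0 in clone 2 and 3 and 4 in clone 1. PTPN2, a tyrosine phosphatase, had 3 and 4 peaks in WT and 0 and 2 in clone 1. LSR, a protein of tricellular tight junctions, also had 3 and 4 in WT and 0 and 2 in clone 1.

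Among the RPTEC lines ZNF471 and CHRM3 had peaks in WT alone. ZNF471, a zinc finger protein encoded on chromosome 19, had 4 and 4 peaks in WT and 0 in each of the 6 RPTEC libraries of clone 2, clone 1 and SETD2KO-1R, but 786-O called 5 in its WT libraries together and 7 in those of its clone 2. CHRM3, a muscarinic acetylcholine receptor, had 5 and 2 peaks in WT and 0 in the same 6 libraries. Of the 414 lost genes 137 (33.1%) had no peak in clone 1, 197 (47.6%) had peaks in both SETD2KO-1R libraries and 48 (11.6%) met both conditions, whereas 41 (9.90%) had no peak in clone 1 or in SETD2KO-1R. Among the same 928 genes these shares were 18.4%, 54.6%, 4.85% and 6.47%.

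A contiguous stretch of chromosome 9 held no clone 2 peak. Between chr9:21334621 and 22367437, 1032.82 kb in all, WT called 27 and 28 peaks, clone 1 called 30 and 25, SETD2KO-1R called 28 and 25 and clone 2 called 0 and 0. The 8 libraries of 786-O called 11 to 23, all of them no further than 128 kb beyond the start of MTAP, so the rest of the stretch, with CDKN2A, CDKN2B and CDKN2B-AS1, held no 786-O peak either. It held 13 lost regions. The genes inside include MTAP, the lncRNA gene MIR31HG (8 and 8 peaks in WT), CDKN2A, which encodes the inhibitors p16 and p14ARF (5 and 2), CDKN2B (2 and 2), CDKN2B-AS1 (4 and 2) and IFNE, an epithelial interferon (1 and 1), all at 0 and 0 in clone 2. In the 1 Mb beyond the stretch, clone 2 called 21 and 17 peaks where the other 14 libraries called 1 to 7, with 6 gained regions and DMRTA1 as the only protein-coding gene. In the 1 Mb before it clone 2 called 6 and 8, within the range of 2 to 10 of the other libraries. RNA level and DNA copy number are not in these lists, and their part in this pattern was not tested.

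**Figure D4:**
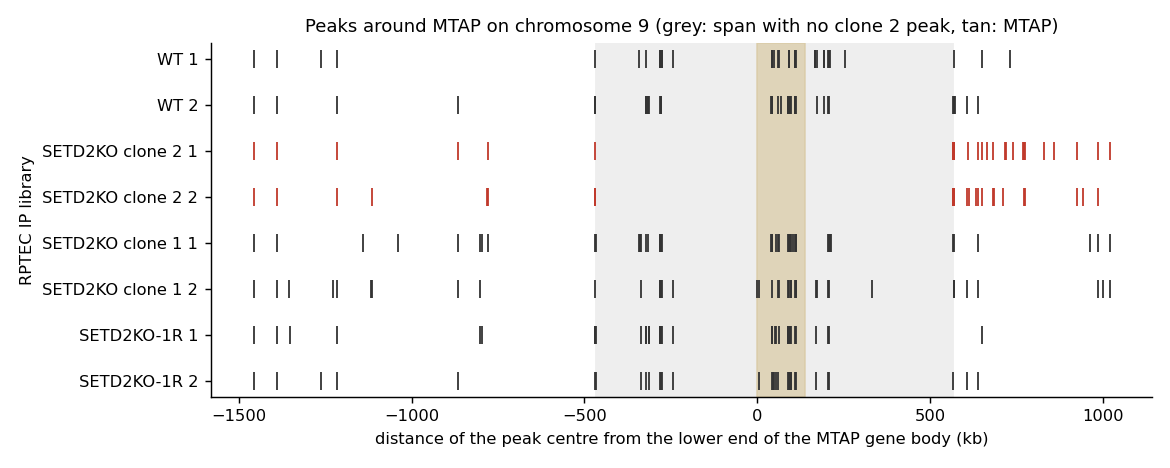
Peak centres in the 8 RPTEC libraries by distance in kb from the start of MTAP on chromosome 9, 1 row per library; the grey band is the span of 1032.82 kb with no clone 2 peak and the tan band is MTAP. WT called 27 and 28 peaks in the span and clone 2 called 0 and 0, while clone 2 called 21 and 17 in the 1 Mb to the right.

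Other long runs of consecutive regions lacked any call of 1 line, and the runs described were picked after all were listed. Among all regions 27.0% had a clone 2 call and no WT call and 31.3% the reverse, and part of the regions of each run met the rule for gained or lost. On chromosome 2 a run of 34 regions without a WT call spanned 760 kb around CYRIA, a RAC1-binding protein, of which 10 were gained, with 24 and 22 peaks in clone 2, 28 and 40 in clone 1, 19 and 8 in SETD2KO-1R and 0 and 0 in WT. In 786-O the same span held 0 and 1 peaks in WT, 28 and 25 in clone 1, 28 and 23 in clone 2 and 0 and 0 in SETD2KO-1R. On chromosome 8 a run of 28 regions with no protein-coding gene over 656 kb, of which 12 were gained, had 21 and 19 peaks in clone 2, 17 and 13 in clone 1 and 0 in each WT and SETD2KO-1R library. There the 786-O libraries had 1 and 0 in WT, 18 to 23 in the 4 knockout libraries and 0 and 0 in SETD2KO-1R. In both of these spans each knockout library of RPTEC and 786-O held more peaks than any WT or SETD2KO-1R library of its cell line. On chromosome 3 a run of 34 regions over 2289 kb, from DZIP3 to DPPA4, of which 19 were gained, had 28 and 27 peaks in clone 2, but SETD2KO-1R had 24 and 24. In the other direction, 27 regions over 201 kb on chromosome 11, which hold the sialidase gene NEU3 and the organic anion transporter gene SLCO2B1 and of which 13 were lost, had 21 and 20 peaks in WT, 0 and 0 in clone 2, 3 and 2 in clone 1 and 10 and 7 in SETD2KO-1R.

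Genes of the gamma protocadherin cluster on chromosome 5 held the most gained regions, up to 10 each. Its 22 genes, which encode cell-surface cadherins, share nested gene bodies, so the calls cannot be assigned to 1 of them. Over chr5:141330514-141512975 WT called 3 and 4 peaks and clone 2 called 21 and 30, with 10 gained and 0 lost of 34 regions. Clone 1 called 37 and 33 and SETD2KO-1R called 12 and 14. The neighbouring beta cluster of 16 genes went from 3 and 2 peaks in WT to 12 and 14 in clone 2, with 17 and 9 in clone 1 and 3 and 2 in SETD2KO-1R. The alpha cluster held 0 and 0 peaks in WT and 0 and 1 in clone 2. ABTB3, a gene outside the clusters with 7 gained regions, had 2 and 1 peaks in WT and 15 and 8 in clone 2, but 16 and 18 in SETD2KO-1R.

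UBE2D2, a ubiquitin-conjugating enzyme, held the most lost regions, 9, and went from 14 and 26 peaks in WT to 1 and 3 in clone 2. It had 6 and 2 in clone 1 and 4 and 6 in SETD2KO-1R, so all 6 derived libraries were below WT. KAZN, a desmosome-associated protein, and HSPG2, the basement membrane proteoglycan perlecan, held 6 lost regions each. KAZN, which also held 2 gained regions, had 14 and 19 peaks in WT and 11 and 6 in clone 2, and HSPG2 had 17 and 11 against 5 and 2. SNX29, a sorting nexin, held 5 lost regions with 23 and 18 peaks against 5 and 4. NXN, an oxidoreductase, also held 5 lost regions but 4 gained ones, with 34 and 43 peaks against 20 and 35.

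The 10 gained regions of highest rank lay in 10 genes. In KIFC3, a kinesin, a region at chr16:57769905-57770381 ranked 99.5 and 99.9 in the clone 2 lists and was called by 1 of 2 clone 1 libraries and 1 of 2 SETD2KO-1R libraries. DST, a cytoskeletal linker, followed with ranks of 98.9 and 99.4, and KLC1, a kinesin light chain, with 98.7 and 98.7. In BCLAF1, a splicing-associated protein, a region at chr6:136261446-136261742 ranked 98.1 and 99.2. It was called in both clone 1 libraries and neither SETD2KO-1R library, and was called in every 786-O library. The other 6 of the 10 lay in PROM1, LASP1, MAP7D2, F2R, CASC3 and GNA13. In the 10 regions both ranks stood between 96.2 and 99.9, and 5 of them, in KLC1, BCLAF1, LASP1, F2R and CASC3, were also called in both libraries of clone 1 or of SETD2KO-1R. The region of GNA13, a G protein alpha subunit, was called in none of those 4 libraries.

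Among the 10 lost regions of highest rank in WT were those of HSPD1, the mitochondrial chaperone (99.6 and 99.8), and HSP90B1, the chaperone of the endoplasmic reticulum (99.7 and 99.6). NUFIP2, NUCKS1, GIGYF2, COX6A1, C1orf35, ACTN4 and SF3B2 also held regions among the 10. The lost region of ACTN4, an actin crosslinker, was called by no library of clone 1 or SETD2KO-1R. TNFRSF11B, a decoy receptor for RANKL, SATB1, NIPBL, a cohesin loader, and NUPR1, a stress-response factor, followed BCLAF1 among gained regions called in both clone 1 and neither SETD2KO-1R library. Lost regions absent from clone 1 and present in both SETD2KO-1R libraries were led by LAMC1 (ranks of 93.6 and 96.0 in WT), FAM136A (89.1 and 97.2), MAL (90.2 and 95.6), MYO1C (89.9 and 94.0) and ITGA6 (92.7 and 88.0), the last of which encodes a laminin-binding integrin chain.

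The widest changed regions were lost. A region of EVPL, which encodes the desmosomal protein envoplakin, was 2917 bp wide at chr17:76007833-76010749 and was called in both WT libraries, in no library of clone 2, clone 1 or SETD2KO-1R, and in all 8 libraries of 786-O. A region in no protein-coding gene on chromosome 3 was 2608 bp wide and called in WT alone among the 16 libraries. A region of MAL was 2182 bp wide. The 3 widest gained regions were 1 on chromosome 3 (2125 bp, in no protein-coding gene), 1 in ADGRA2 (1936 bp) and 1 in FOXQ1, a forkhead factor (1909 bp), and the first and last of these were called in both clone 1 and both SETD2KO-1R libraries.

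Lists of genes with a known role were read against the shares over all protein-coding genes with a region (8.4% gained and 14.6% lost), and counts of members with all peaks gained or lost against 2.86% and 3.75% of all protein-coding genes with a peak. The epithelial junction and polarity list had 39 genes with a region, of which 2 held a gained region (5.13%) and 13 a lost one (33.3%). MAL2, ESRP2, MARVELD2 and PRKCI, a transcytosis protein, an epithelial splicing factor, a tricellular junction protein and a polarity kinase, were among the 5 genes of the list with all peaks lost, MAL being the other. PATJ, a polarity scaffold, held 4 lost regions and had 12 and 20 peaks in WT, 4 and 4 in clone 2, 3 and 5 in clone 1 and 4 and 0 in SETD2KO-1R. PKP2, a desmosomal plakophilin, held 2 lost regions (3 and 3 peaks against 1 and 1). SCRIB, another polarity scaffold, went against the list with 2 gained regions. The list's members together had 125 and 129 peaks in WT and 78 and 70 in clone 2.

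The list of proximal tubule transporters and kidney factors had 46 genes with a region, 5 with a gained (10.9%) and 15 with a lost region (32.6%). FXYD2, the gamma subunit of the sodium pump, had 3 and 2 peaks in WT and none in clone 2. SLC22A5, the carnitine transporter, SLC1A1, a glutamate transporter, and SLC2A12, a glucose transporter, each had 1 and 1 in WT and none in clone 2. SLC34A3, a phosphate transporter of the proximal tubule, went the other way with 0 and 0 against 4 and 1. PAX2, the kidney transcription factor, held 3 lost and 2 gained regions (19 and 9 peaks against 15 and 5), and its partner PAX8 held 2 gained regions (12 and 11 against 13 and 7).

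The extracellular matrix and epithelial-mesenchymal list had 81 genes with a region, of which 14 held a gained (17.3%) and 15 a lost region (18.5%). COL16A1, FBN2, PDGFRB, TIMP1 and TNFRSF11B had all peaks gained. Of these, FBN2, a microfibril protein, had 0 and 0 peaks in WT, 3 and 6 in clone 2, 4 and 2 in clone 1 and 3 and 3 in SETD2KO-1R. TWIST2, a mesenchymal transcription factor, held 2 gained regions with 3 and 3 peaks against 9 and 8, but SETD2KO-1R had 10 and 12. TGFBR2, a receptor for TGF-beta, held 3 lost regions with 4 and 6 peaks against 1 and 0. The laminin chain genes LAMC1 and LAMA3 held 1 and 2 lost regions. A further laminin chain gene, LAMA5, was the 1 member with all peaks lost, at 2 and 1 in WT and 0 and 0 in clone 2. Clone 1 called 0 and 0 peaks in LAMA5 and SETD2KO-1R called 5 and 5.

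Among m6A writers, readers and erasers 23 genes had a region, none with a gained and 4 with a lost region (17.4%). These were the demethylase FTO (3 and 3 peaks against 1 and 0), the readers IGF2BP2 (8 and 9 against 4 and 6) and YTHDF2 (3 and 6 against 4 and 3), and the writer subunit VIRMA (5 and 6 against 2 and 3). METTL3, the catalytic subunit, had no peak in the 4 libraries. Of 33 genes for H3K36 methylation and its readers, 6 held a gained (18.2%) and 8 a lost region (24.2%). SETD2 itself had 7 and 10 peaks in WT, 4 and 5 in clone 2, 6 and 4 in clone 1 and 11 and 10 in SETD2KO-1R, with 1 lost region. A peak in SETD2 is no check of the knockout, since the lists do not show the edit. The methyltransferase NSD2 held 2 lost regions with 15 and 13 peaks against 7 and 8.

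The zinc finger genes, taken as all ZNF symbols with a number, had 418 members with a region, of which 24 held a gained (5.74%) and 90 a lost region (21.5%). In 27 of them all peaks were lost and in 3 all were gained. On chromosome 19 the lost share was 21.1% of 213 zinc finger genes against 16.6% of 603 other protein-coding genes, and off chromosome 19 it was 22.0% of 205 zinc finger genes. ZNF667 (2 and 3 peaks in WT) and ZNF497 (2 and 3) had 0 in all 6 RPTEC libraries of clone 2, clone 1 and SETD2KO-1R, as did ZNF471.

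Of 20 fatty acid oxidation genes 2 held a gained (10.0%) and 2 a lost region (10.0%), with ACAT1, a ketothiolase, holding 2 gained regions. Of 40 p53 targets and cell cycle inhibitors 3 held a gained (7.5%) and 7 a lost region (17.5%), CDKN2A and CDKN2B of the chromosome 9 stretch among them. Of 42 immediate early and inflammatory genes 3 held a gained (7.14%) and 4 a lost region (9.52%). KLF4, a pluripotency-related factor of epithelia, had 1 and 1 peaks in WT and 0 in all 6 other RPTEC libraries. POU2F2, a B-cell transcription factor, had 1 and 1 peaks in WT, 5 and 2 in clone 2, 5 and 7 in clone 1 and 1 and 0 in SETD2KO-1R. It held 1 gained region, which both clone 1 libraries and neither SETD2KO-1R library called.

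The labelled cell type was read from peaks in marker genes. Of 16 renal epithelial markers 10 had a peak in all 4 libraries, among them PAX8, PAX2, LHX1, KRT8, KRT18, CDH2, CDH6, ANPEP and GGT1. CDH1, LRP2, CUBN, AQP1, SLC34A1 and SLC22A6, which mark differentiated tubule cells, had none in any of the 4. Of 3 blood markers none had a peak, and of 5 endothelial markers only CDH5 did, at 1 and 1 in WT. The 5 fibroblast markers together had 2 and 1 peaks in WT and 3 and 1 in clone 2, with COL1A1 at 1 and 0 in both lines, LUM at 1 and 1 against 1 and 0 and PDGFRA at 0 and 0 against 1 and 1. A gene without a peak may still be expressed.

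The other lines were then asked whether they called the same regions. The set with the same number of calls as gained and lost regions was the 6856 regions called in 1 WT and 1 clone 2 library. Both clone 1 libraries called 34.0% of the gained regions (518), 18.6% of the lost regions and 25.4% of that set. Neither clone 1 library called 30.2% of the gained regions, 46.6% of the lost regions (1008) and 33.2% of the set. The calls of SETD2KO-1R had the opposite order in part. Neither of its libraries called 47.9% of the gained regions (731), 35.9% of the lost regions and 29.4% of the set, whereas both called 22.8% of the gained regions, 30.6% of the lost regions (661) and 35.9% of the set, so the lost regions too were called less in SETD2KO-1R than the set was. Of the gained regions 180 (11.8%) were called in both clone 1 and in neither SETD2KO-1R library, against 2.99% of the set. Of the lost regions 154 (7.12%) had the reverse calls, against 4.03% of the set. None of these 4 libraries called 296 gained regions (19.4%), 499 lost regions (23.1%) and 17.0% of the set. These shares are descriptions, since the regions of a library are not replicates and the gained and lost sets rest on the same WT libraries.

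Per library, 52.9% and 50.9% of gained regions and 33.7% and 38.2% of lost regions were called in clone 1. In SETD2KO-1R the order was the reverse, with 36.8% and 38.1% of gained and 44.7% and 49.9% of lost regions. In 786-O, whose libraries played no part in choosing the regions, WT called 31.2% and 32.6% of gained and 47.7% and 47.0% of lost regions. The knockout clones of 786-O called 39.5% to 43.8% of gained and 41.7% to 48.3% of lost regions, and SETD2KO-1R of 786-O called 34.2% and 26.7% of gained and 40.6% and 38.0% of lost regions. All 4 knockout libraries of 786-O were thus above all 4 SETD2-expressing ones for gained regions, while for lost regions the groups overlapped. Of the remaining regions, outside the gained, lost and always-called sets, the knockout libraries of 786-O called 30.3% to 42.8%. The SETD2-expressing libraries of 786-O called 26.6% to 38.5% of them, so these groups overlapped too. In RPTEC, clone 1 called 28.4% and 37.1% of the remaining regions and SETD2KO-1R called 35.3% and 37.6%. Always-called regions were called at 81.8% to 92.9% in these libraries. By the same rule clone 1 against WT gave 2696 gained (5.12%) and 1947 lost regions (3.7%) of 52681. Both comparisons use the same WT libraries.

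**Figure D5:**
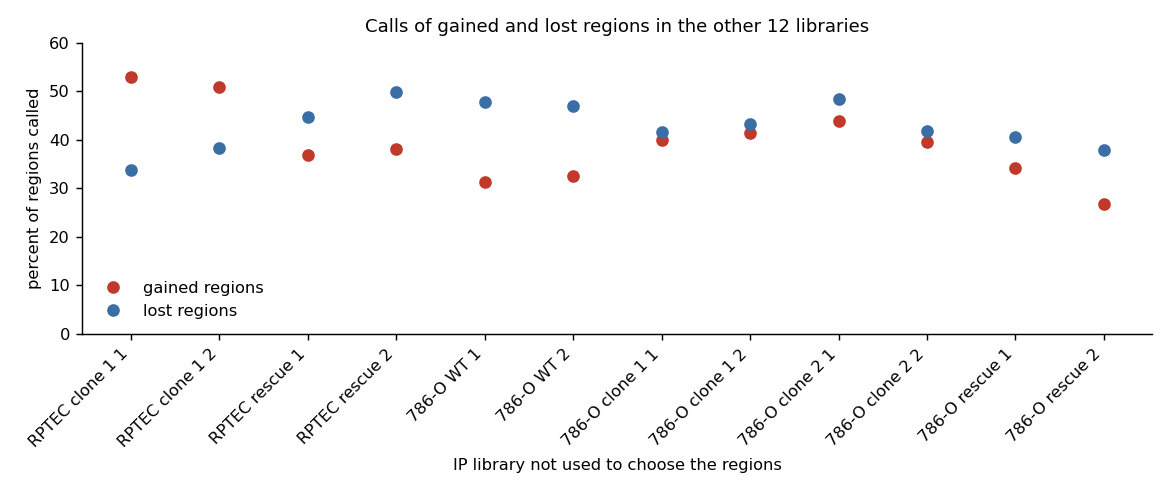
Percent of the gained (red) and lost (blue) regions of clone 2 called in each of the 12 IP libraries that did not choose them. Clone 1 called more of the gained than of the lost regions (52.9% and 50.9% against 33.7% and 38.2%), and SETD2KO-1R and all 786-O libraries called more of the lost regions. Of the remaining regions, which are not plotted, these libraries called 26.6% to 42.8%.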

How the data were processed

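The deposited files are 1 m6A peak list per IP library. According to the study's methods and the processing notes, reads were aligned with STAR to hg38, quantified with HTSeq, scaled by an E. coli K12 spike-in, and peaks were called per library with MACS2 over the matching Input. In the deposited lists each peak has a score, which the authors give without a scale, and a summit offset, whose place was used in 1 alternative. The fold, p and q columns hold only 0. No read counts were analysed, so depth is unknown, and the number of libraries limits the precision.

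Peaks of the 4 lists were merged at 1 bp of overlap with Python, NumPy and pandas, and the number of regions was checked with bedtools. The rule recovered all 200 regions planted per direction in simulated lists. Scores were turned into a percent rank within each list. A peak was placed in the RefSeq gene bodies (GRCh38.p14) over its centre, without strand, so overlapping and antisense genes cannot be told apart. Exons were not annotated. Position along the gene used the 81.7% to 83.1% of regions whose gene has a known strand. Library measures were compared by an exact two-sided permutation test. Named genes were SETD2, METTL3, MAL and POU2F2, and per direction the 10 regions of highest mean rank in protein-coding genes, the 6 genes with most changed regions, the 8 genes of all-or-none calls with most peaks, the 5 highest regions with the same calls in clone 1 and opposite calls in SETD2KO-1R, the 3 widest regions, and members of gene lists. Other named genes and spans were picked after their values were seen. The members, lists and rules were chosen with earlier results of these data known. Alternatives were score subsets, other merges and call rules, and leaving out each library. Some genes that the rule names are not reported here.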

Additional observations from a re-analysis of the deposited data

Results flagged for a closer look

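Of 69 genes, regions and library measures compared between the cell lines, 2 moved in opposite directions in every library of RPTEC and 786-O, and the difference between the cell lines was not tested. UBE2D2 went from 14 and 26 peaks in WT to 1 and 3 in clone 2 of RPTEC (mean difference -18) but from 7 and 6 to 13 and 17 in clone 2 of 786-O (8.5). The lost region of NUFIP2 was called in both 786-O clone 2 libraries and in neither 786-O WT library (a difference of 2 libraries). With 2 libraries per group, single libraries could not be examined for outlying values.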

How the results depend on the processing

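Leaving out 1 library turns a rule of 2 calls into a rule of 1 call, so the counts rise by construction. Gained regions then ranged from 2216 to 8763, lost regions from 3384 to 9244 and the share of gained among changed regions from 19.3% to 72.1%, above 50% without either clone 2 library and below it without either WT library. Genes with all peaks gained ranged from 509 to 893 and with all peaks lost from 714 to 1338. With the upper 50% of each list there were 684 gained and 1076 lost regions, a share of 38.9%. With equal numbers of peaks per library that share was 48.4%, against 41.4% as reported. In 200 bp bins there were 3853 gained and 5390 lost bins, which are smaller units. The other counts stayed within 1.5 times.

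The percentages called in other lines moved beyond their counting intervals (95%, Wilson) under several settings. Gained regions in both clone 1 libraries were 28.2% with the upper 50%, 23.1% with equal numbers, 27.0% when 50% of the region had to be covered and 30.7% when a summit had to lie in it. Lost regions in neither clone 1 library were 44.0% with the upper 50%, 50.4% by coverage and 49.7% by summit. Gained regions in neither SETD2KO-1R library were 57.3%, 54.6% and 51.0% with equal numbers, by coverage and by summit. Lost regions in both SETD2KO-1R libraries were 26.1%, 24.9% and 27.5% under these settings.

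The log2 difference in peak number ranged from -0.38 to 0.07 without single libraries and was 0.066 without clone 2 replicate 2. The difference in median width (6.5 bp) was -3.5 with the upper 50% and -0.5 with equal numbers, and ranged from -8.5 to 21.5 without single libraries, at -7 without WT replicate 2 and -8.5 without clone 2 replicate 1. The differences in location kept their direction, from -4.69 to -3.17 points in protein-coding genes and from 2.27 to 3.38 in no gene. With replicate number as a block, the differences were the same, -0.16, 6.5, -3.93 and 2.83, each with an exact p of 0.5, the smallest that such pairs allow. The labels tie the numbers to no shared culture or day. Over the 48637 regions the replicate 1 minus 2 calls of WT and clone 2 correlated at r = 0.0965. The numbers were not taken as pairs, although by covered bases each clone 2 library overlapped most with the WT library of the same number. Whether equal numbers share a batch was not tested. Counts of genes with all peaks gained or lost stayed within 1.5 times under the other settings. Their order turned with equal numbers of peaks (377 gained and 354 lost, against 316 and 414). Among the settings without 1 library, which shift these counts by construction, only that without clone 2 replicate 2 gave more gained genes (893 and 714). What caused the changes was not tested.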
